A study of Mus musculus with 10 samples.

Results

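Leukotrienes and prostanoids are lipid mediators made from arachidonic acid, which phospholipases release from membranes. In the leukotriene branch, 5-lipoxygenase (Alox5) works with its activating protein (Alox5ap) to make leukotriene A4, which the hydrolase Lta4h turns into leukotriene B4, an attractant of neutrophils, or the synthase Ltc4s joins to glutathione to give the cysteinyl leukotrienes, which constrict airways. In the prostanoid branch, the cyclooxygenases Ptgs1 and Ptgs2 make prostaglandin H2, which terminal enzymes such as Ptges (prostaglandin E2) and Tbxas1 (thromboxane A2) convert further. Alveolar macrophages, the resident phagocytes of the airspace, are a known source of both kinds of mediator.

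The transcripts of 10 enzymes of these branches were followed: the secreted phospholipase Pla2g2d, the leukotriene enzymes Alox5, Alox5ap, Lta4h and Ltc4s, the lipoxygenase Alox15, and the prostanoid enzymes Ptgs1, Ptgs2, Ptges and Tbxas1. They were found in the table by gene symbol. Of the 10, 9 were matched among 26173 genes, Alox5ap is not analysed here, and 8 reached 1 FPKM (fragment numbers scaled to transcript length and library size) in at least 2 samples, the level at which a gene entered the comparisons. Ptgs2 did not enter.

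RNA came from alveolar macrophages of C57BL/6 mice that the labels give as female and 16 weeks old, with 2 samples in each of 5 groups. The conditional line carried floxed Bach2, which encodes a transcriptional repressor best known from lymphocytes, together with Cd4-Cre. Cd4 is a T cell driver, so the macrophages themselves need not have lost the gene. Its groups were the controls of that line (conditional control), knockout macrophages with a control-like surface phenotype (KO-normal, where KO stands for knockout) and knockout macrophages with an altered surface phenotype (KO-abnormal), and these fractions were separated by surface markers. Wild-type mice and mice with germline loss of Bach2 made up the remaining groups. The labels do not say which alleles the conditional controls carried or how many animals gave each sample.

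The samples of a group were not independent. On the log2(FPKM + 1) scale they correlated at 0.993 to 0.998, against 0.685 to 0.853 between groups, and of genes at 1 to 3 FPKM only 0.0960% to 0.196% were at 0 in 1 sample of a pair, against 28.3% to 39.7% between groups. Such pairs differed by little more than sampling noise, as 1 library sequenced in repeat would, and counted once per group. There is therefore no replicate check of any group difference and no p-value. Depth was about 7.42 to 9.43 M fragments per run, and a single read on 2 kb of transcript then equals 0.0530 to 0.0674 FPKM. Bach2 was at or under 0.0571 FPKM in every library and could not check the genotypes. The wild-type and germline knockout libraries went against their female label, with the Y-linked gene Eif2s3y at 60.8 and 39.9 FPKM and the X-inactivation transcript Xist under 0.01 FPKM. Xist was at 3.75 to 9.08 FPKM in the other 3 libraries.

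A gene was called higher or lower where library means and every pairing of single runs lay 4-fold or more from each other as log2(FPKM + 1), with 20 FPKM or more in the higher library. Adding 1 FPKM makes differences of weakly expressed genes look smaller. All differences below are on it unless stated otherwise, and all levels are in FPKM.

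The leukotriene enzymes were lower in both strongly changed knockout libraries. Alox5, Lta4h and Ltc4s, the 3 measured members of the branch, were each called lower in KO-abnormal macrophages against the conditional control and in germline knockout macrophages against the wild type. None of them was called in KO-normal macrophages. Alox5 changed most, to 17.1 FPKM in the KO-abnormal and 4.75 FPKM in the germline knockout library from 192 and 185 FPKM in the respective controls. From these bulk values, fewer cells of a type and less RNA per cell cannot be told apart.

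**Figure D1:**
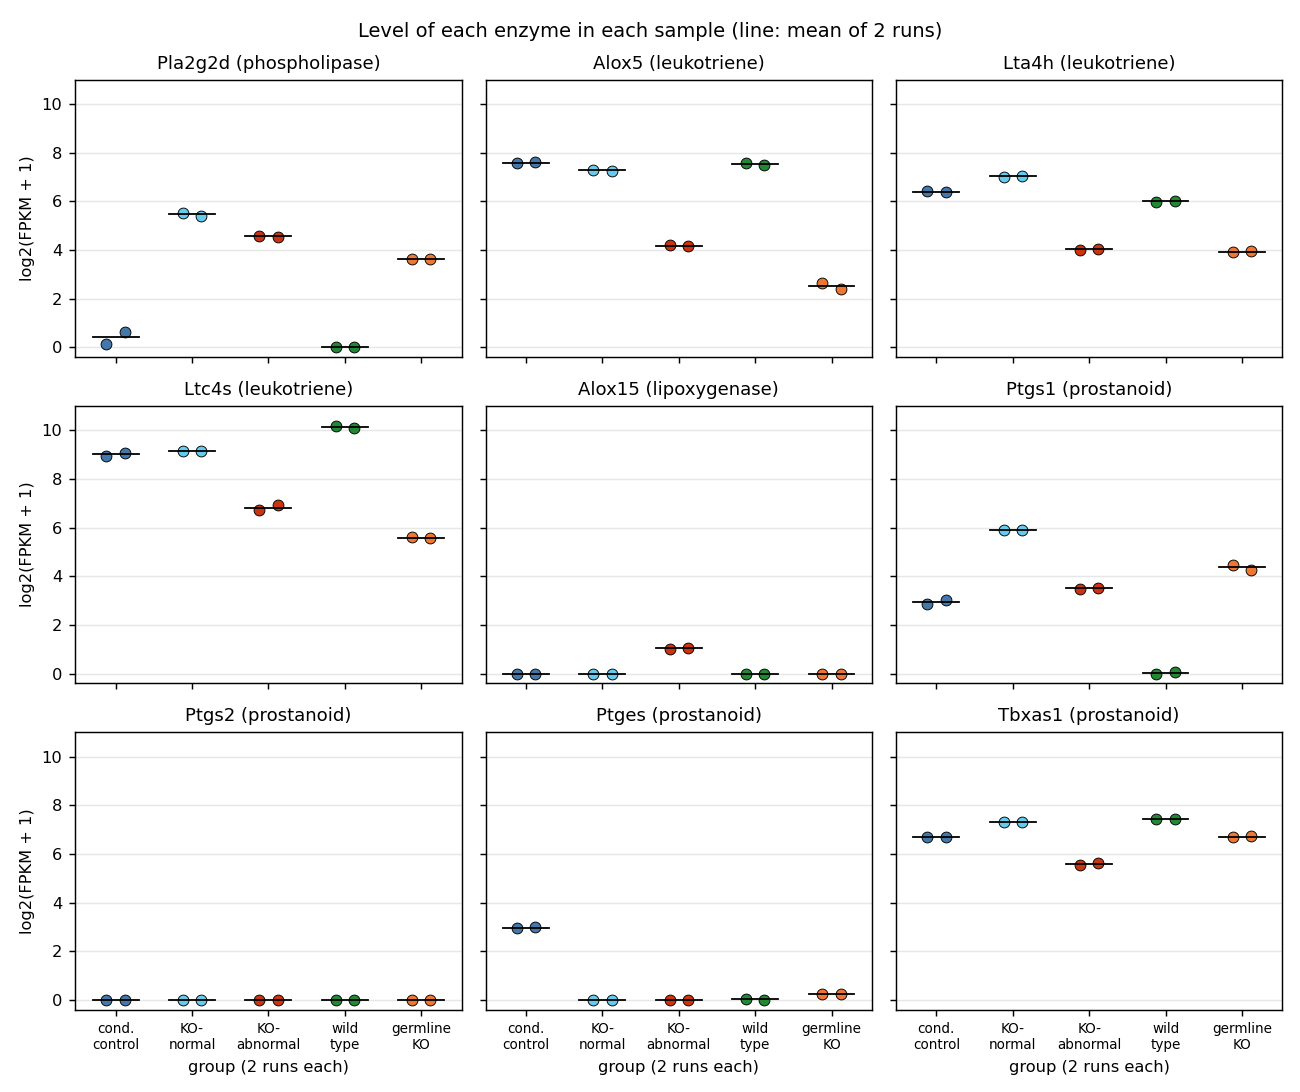
Level of each of the 9 measured enzymes as log2(FPKM + 1) in the 10 samples; points are the 2 runs of each library, bars their mean. Alox5, Lta4h and Ltc4s sit lowest in the KO-abnormal and germline knockout libraries, whereas Pla2g2d is near 0 in both control libraries and Ptgs2 is at 0 throughout.

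Alox5, the enzyme that opens the branch, gave 191 and 193 FPKM in the conditional control runs, 153 and 153 in the KO-normal, 17.4 and 16.8 in the KO-abnormal, 189 and 181 in the wild-type and 5.21 and 4.29 in the germline knockout runs. The runs of the control libraries and the KO-normal library were all above 150 FPKM and those of the other libraries all under 18. The log2 difference was -3.42 for the KO-abnormal library against the conditional control and -5.02 for the germline knockout against the wild type, that is, 10.7 and 32.4 times lower with 1 FPKM added. The control libraries differed by -0.05. By level, Alox5 was the 501st of 11336 genes in the conditional control and the 520th in the wild type, and the 4151st and 6755th in the KO-abnormal and germline knockout libraries.

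Ltc4s, which commits leukotriene A4 to the cysteinyl leukotrienes, was the most abundant enzyme of the set in every library except the germline knockout, where Tbxas1 exceeded it. Its runs were at 498 and 531 FPKM in the conditional control, 573 and 572 in the KO-normal, 104 and 119 in the KO-abnormal, 1148 and 1108 in the wild-type and 48.0 and 46.5 in the germline knockout library. The KO-abnormal and germline knockout runs lay under all others without overlap. The log2 difference was -2.20 in the KO-abnormal library against its control (pairings of runs -2.35 to -2.05) and -4.55 in the germline knockout against the wild type. The first of these was near the threshold and was lost, at -2.13, with columns rescaled by median-of-ratios factors, because 1 pairing of runs fell short. The controls themselves differed by 1.13, with the wild type higher. On the opposite strand, 268 exon bases of Ltc4s are shared with the predicted gene Gm26542 in GENCODE, and libraries of this kind do not mark strand.

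Lta4h, which makes leukotriene B4, gave 85.0 and 81.4 FPKM in the conditional control runs, 128 and 132 in the KO-normal, 15.04 and 15.65 in the KO-abnormal, 62.7 and 64.6 in the wild-type and 14.0 and 14.4 in the germline knockout runs. It was thus highest in the KO-normal library, and its KO-abnormal and germline knockout levels lay close together, although their runs did not overlap. The log2 difference was -2.37 (5.15 times lower with 1 FPKM added) in the KO-abnormal and -2.09 (4.26 times lower) in the germline knockout library. Between the controls it was -0.38. With the wild type as the reference, the KO-abnormal difference was -1.98, and with columns rescaled by median-of-ratios factors the germline knockout difference was -1.95, both just short of the call.

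Counted against all genes, 3.76% of 11336 were called lower in the KO-abnormal library against the conditional control and 3.36% in the germline knockout against the wild type. The floor of 20 FPKM bars most genes from a call. Among genes at 20 FPKM or more in the control, a level that all 3 enzymes exceeded, the shares were 11.5% of 3716 and 10.4% of 3674. Genes lower in both comparisons, which share no samples, numbered 116, or 1.02% of all genes and 3.84% of the 3020 genes at 20 FPKM or more in both controls. These were 27.2% of the genes lower in the KO-abnormal library and 30.4% of those lower in the germline knockout. The 3 leukotriene enzymes were among them.

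The enzymes of the branch did not keep their proportions. The ratio of Ltc4s to Lta4h in FPKM was 6.19 in the conditional control, 4.40 in the KO-normal, 7.27 in the KO-abnormal, 17.7 in the wild-type and 3.33 in the germline knockout library. The control libraries alone differed by more than the conditional line did within itself, so the size of this ratio depended on the control. The ratio of Alox5 to Lta4h was 2.31 and 2.91 in the conditional control and wild type, 1.18 and 1.11 in the KO-normal and KO-abnormal libraries and 0.335 in the germline knockout.

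Within the conditional knockout, the surface phenotypes differed in the same 3 genes. Against KO-normal macrophages, KO-abnormal macrophages had log2 differences of -3.09 for Alox5, -3.00 for Lta4h and -2.35 for Ltc4s, all called lower, where 3.26% of all genes were. Normal-marker macrophages against the conditional control gave -0.32, 0.64 and 0.15. In that comparison 0.838% of all genes were called lower and 0.935% higher, and no leukotriene enzyme was in either group. The KO-normal and KO-abnormal comparisons use 1 control library between them.

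**Figure D2:**
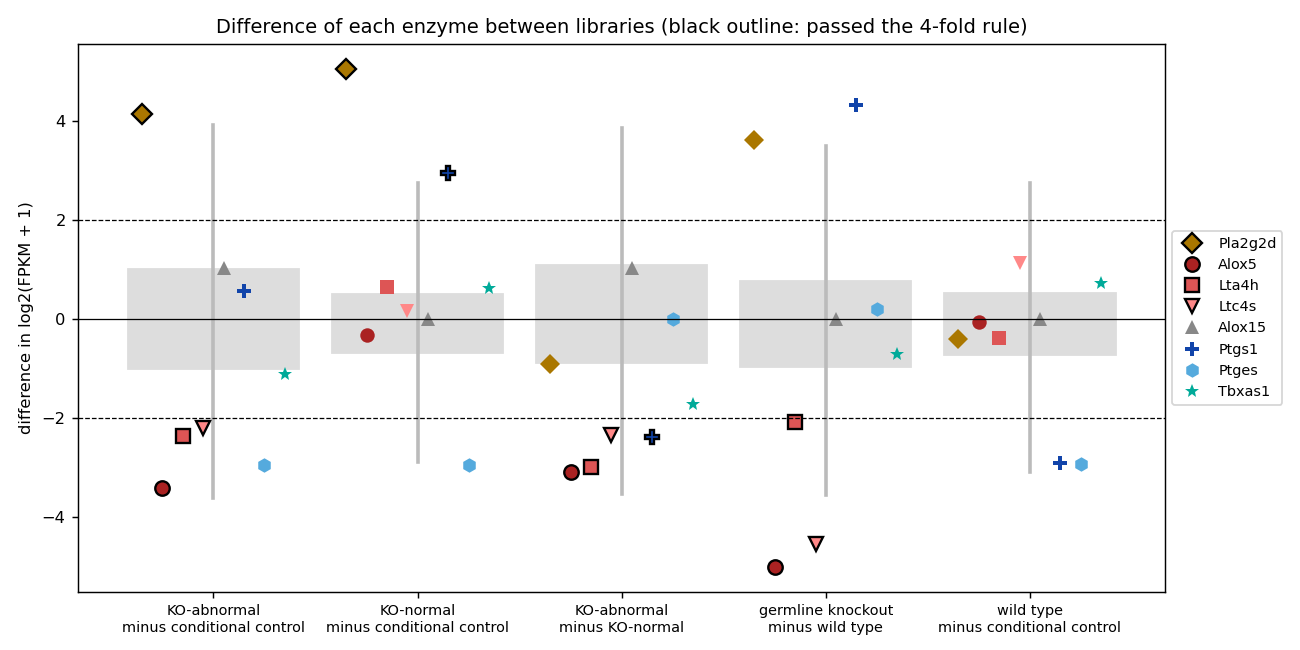
Difference in log2(FPKM + 1) of the 8 enzymes that entered the comparisons; grey boxes span the middle 50% of all 11336 genes, grey lines their central 95%, dashed lines the 4-fold threshold, and a black outline marks an enzyme that passed the rule. Alox5, Lta4h and Ltc4s lie under the lower threshold in 3 of the 5 comparisons and between the thresholds in KO-normal against conditional control and in wild type against conditional control.

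Many genes that mark the cells also changed, not all in the same direction, and their part in the result was not tested. Of all genes, 3.76% were called lower and 4.09% higher in the KO-abnormal library, and 3.36% and 2.73% in the germline knockout. Among genes at 20 FPKM or more in the control, 11.5% and 10.4% were lower. Of 14 alveolar macrophage markers, 10 were lower and 0 higher in the KO-abnormal library, and 8 were lower and 1 higher, Chil3, in the germline knockout. The integrin gene Itgax, the regulator Pparg, the scavenger receptor gene Mrc1, the lipid carrier gene Fabp4 and Car4 were the uncalled markers in the germline knockout. They stood there at 365, 79.3, 114, 181 and 190 FPKM, against 289, 153, 211, 145 and 544 FPKM in the wild type. The 14 markers summed to 16776 to 17231 FPKM in the conditional control runs, 34258 to 34561 in the KO-normal and 8944 to 9064 in the KO-abnormal. Their sum was 18923 to 19186 FPKM in the wild-type and 47711 to 47944 in the germline knockout runs. Chil3 made up most of the last, at 46574 FPKM against 9278 in the wild type. Of 6 general macrophage markers, Emr1, Mertk and Lyz2 were lower in the KO-abnormal library, which is 3 of 6, and Fcgr1 in the germline knockout, 1 of 6. Their summed level was 35988 to 36310 FPKM in the conditional control runs, 8629 to 8672 in the KO-abnormal, 29782 to 29925 in the wild-type and 23743 to 23873 in the germline knockout runs, and Lyz2 made up most of it, with 34794 FPKM in the conditional control. Of 12 dendritic cell markers, 10 were higher in the KO-abnormal library, with sums of 7255 to 7262 FPKM against 37.6 to 41.7 in its control. In the germline knockout 3 of the 12 were higher, with sums of 457 to 466 FPKM against 65.0 to 72.2. Of 10 T cell markers, 3 were called higher in the KO-abnormal library (sums of 146 to 152 FPKM against 0.484 to 0.497 in its control). There 7 of the 10 were at 1 FPKM or more, against 0 in the conditional control. Of these, Cd3e, Cd3d, Cd4 and Cd28 were under the floor of 20 FPKM and could not be called. All 10 were under 0.01 FPKM in the germline knockout. Among 10 markers of interstitial and monocyte-derived macrophages, 4 were higher in the KO-abnormal library (908 to 912 FPKM) and 5 in the germline knockout (386 to 391 FPKM).

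Markers of other cells known for these enzymes were read too; their part in the results was not tested, and a listed 0 can be a failed estimate. Of 6 eosinophil markers, Epx, Ccr3 and Prg3 were listed at 0 in all 5 libraries, while Ear6 had levels of 20.3, 37.6 and 12.3 FPKM in the conditional control, KO-normal and germline knockout libraries and near 0 in the KO-abnormal and wild-type libraries, both called lower than the conditional control. Of 10 mast cell and basophil markers, 9 were listed at 0 throughout and Kit was at 9.88 FPKM in the KO-abnormal library alone. The summed level of 10 neutrophil markers was 64.3 to 69.6 FPKM in the conditional control runs, 78.9 to 83.5 in the KO-normal, 11.2 to 20.7 in the KO-abnormal, 41.8 to 43.0 in the wild-type and 46.2 to 56.4 in the germline knockout runs. Within that list Mmp8, a collagenase gene, was lower in the KO-abnormal library (1.54 against 43.7 FPKM) and in the germline knockout (0.782 against 27.0 FPKM), and S100a8 was higher in the germline knockout (43.7 against 4.83 FPKM). The defining genes Retnlg, Ngp, Camp, Ltf and Mpo were listed at 0 in every library. Of 8 platelet markers none was called; Pf4 had levels of 19.8, 11.9, 58.3 and 8.402 FPKM in the conditional control, KO-normal, KO-abnormal and germline knockout libraries and was listed at 0 in the wild type, and Ppbp and Itga2b were listed at 0 throughout.

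Because the 3 leukotriene genes were lower together, the 250 bases before the RefSeq start site of each (GRCm38.p6) are shown, with those of Pla2g2d, which went the other way, and of Tbxas1, the 1 enzyme whose window holds the Bach core motif. They are written 5′ to 3′ along the gene, and capitals mark matches, on either strand, to the Bach and AP-1 core TGANTCA, the Maf element TGCTGA, the GC box GGGCGG, the PU.1 core GAGGAA or the E-box CACGTG.
Alox5 (chr6:116461179-116461428, - strand): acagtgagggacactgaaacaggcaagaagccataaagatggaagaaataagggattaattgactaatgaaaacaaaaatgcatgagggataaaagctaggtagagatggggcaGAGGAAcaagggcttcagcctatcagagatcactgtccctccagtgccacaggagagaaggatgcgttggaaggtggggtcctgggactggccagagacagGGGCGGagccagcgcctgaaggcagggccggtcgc
Lta4h (chr10:93453146-93453395, + strand): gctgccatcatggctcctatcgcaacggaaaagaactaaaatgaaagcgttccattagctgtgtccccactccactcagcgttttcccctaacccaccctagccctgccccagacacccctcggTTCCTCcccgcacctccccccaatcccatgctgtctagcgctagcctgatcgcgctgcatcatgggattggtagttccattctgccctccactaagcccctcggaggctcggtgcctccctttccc
Ltc4s (chr11:50238533-50238782, - strand): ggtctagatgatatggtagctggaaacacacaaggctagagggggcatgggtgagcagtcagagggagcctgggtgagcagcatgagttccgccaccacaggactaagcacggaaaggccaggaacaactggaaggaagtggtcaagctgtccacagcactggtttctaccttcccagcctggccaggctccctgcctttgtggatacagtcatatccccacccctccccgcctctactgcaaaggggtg
Pla2g2d (chr4:138775485-138775734, + strand): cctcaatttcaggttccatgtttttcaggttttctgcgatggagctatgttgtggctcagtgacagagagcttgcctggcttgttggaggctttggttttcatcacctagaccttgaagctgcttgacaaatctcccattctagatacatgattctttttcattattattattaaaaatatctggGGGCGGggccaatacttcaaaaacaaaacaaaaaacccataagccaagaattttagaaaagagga
Tbxas1 (chr6:38918736-38918985, + strand): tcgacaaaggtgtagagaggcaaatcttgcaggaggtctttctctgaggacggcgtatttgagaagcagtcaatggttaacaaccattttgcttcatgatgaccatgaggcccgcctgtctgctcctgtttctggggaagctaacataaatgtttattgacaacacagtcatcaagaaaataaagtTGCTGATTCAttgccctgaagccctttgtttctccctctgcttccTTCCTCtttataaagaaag

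Windows were at hand for 8 of the 10 enzymes. Of 32851 RefSeq windows of this length, 6.75% held TGANTCA, 16.1% TGCTGA, 32.7% GGGCGG, 23.3% GAGGAA and 6.02% CACGTG. In the 8, TGANTCA was found once, as TGATTCA beginning 61 bases before the Tbxas1 start and overlapping a TGCTGA that begins 64 bases before it. The GC box was in the windows of Alox5, Pla2g2d, Ptgs2 and Ptges, and the PU.1 core in those of Alox5, Lta4h, Ptgs1, Ptgs2, Ptges and Tbxas1. The Ltc4s window held none of the 5 motifs. No motif was thus in the windows of all 3 leukotriene genes, which says only that the letters are absent there.

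Pla2g2d, a secreted phospholipase A2 known from lymphoid tissue and dendritic cells, had more transcript in every knockout library than in either control. Its runs were at 0.0986 and 0.554 FPKM in the conditional control, 45.0 and 41.6 in the KO-normal, 23.0 and 22.1 in the KO-abnormal and 11.4 and 11.4 in the germline knockout library, and far under the worth of 1 read in both wild-type runs. Every knockout library was thus above 11 FPKM and both control libraries were under 1 FPKM, with the runs of a library counted once. Pla2g2d entered the comparisons through the knockout libraries only. How many of all genes separate the libraries in this way was not counted. The log2 difference against the conditional control was 5.06 in the KO-normal library, called higher where 0.935% of genes were, and 4.15 in the KO-abnormal library, called higher where 4.09% of genes were. The germline knockout did not reach the floor of 20 FPKM and was not called. KO-abnormal macrophages had less of it than KO-normal macrophages, with a log2 difference of -0.91 that was not called.

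Alox15, which oxidises arachidonic acid at other positions and is known from eosinophils and resident peritoneal macrophages, was listed at 0 in 4 libraries and at 1.03 and 1.06 FPKM in the KO-abnormal runs. This amounts to about 39.2 reads over both runs, and was under the floor.

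The prostanoid enzymes did not move as a group. Of the 3 that entered the comparisons, 0 were called in the KO-abnormal library against the conditional control and 0 in the germline knockout against the wild type. Ptgs1 and Ptges were under the floor of 20 FPKM in both comparisons, so only Tbxas1 could have been called. Ptgs1 and Ptges had log2 differences of 0.56 and -2.96 in the first comparison and 4.33 and 0.21 in the second. Of all genes, 4.09% were called higher and 3.76% lower in the first, and 2.73% and 3.36% in the second. In the KO-normal library 1 of the 3 was called higher, where 0.935% of all genes were. It was Ptgs1, the cyclooxygenase made constitutively in many cells. The median log2 difference of the 3 enzymes was -1.11, 0.62 and 0.21 in the KO-abnormal, KO-normal and germline knockout comparisons. The median over all genes was 0.00 in each.

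Ptgs1 gave 6.23 and 7.20 FPKM in the conditional control, 58.8 and 59.3 in the KO-normal, 10.3 and 10.6 in the KO-abnormal and 21.1 and 18.1 in the germline knockout runs. In the wild type it was listed at 0 in 1 run and at 0.0513 FPKM in the other, a level of about 1 read. Every knockout library lay above both control libraries, and the KO-normal library was highest. How many of all genes separate the libraries in this way was not counted. The KO-abnormal library exceeded the conditional control by only 0.56 log2 units, uncalled. The log2 difference was 2.96 in the KO-normal library against the conditional control and -2.40 in KO-abnormal against KO-normal macrophages, where it was called lower. The germline knockout mean of 19.6 FPKM missed the floor by a small margin. Ptgs1 was called higher there without the second germline knockout run and with rescaled columns. The wild type itself differed from the conditional control by -2.91 log2 units, uncalled because neither library reached the floor. Of genes at 5 to 10 FPKM in the conditional control, 17.8% of 1580 were under 0.1 FPKM in the wild type.

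The Ptgs1 values are sums of a curated and a predicted RefSeq transcript. The curated transcript made up 93.7% of the gene in the KO-normal and 98.9% in the KO-abnormal library (55.3 and 10.3 FPKM), but 49.4% in the conditional control and 44.0% in the germline knockout (3.32 and 8.63 FPKM). Reads common to both transcripts are divided between them by a model, so these shares are estimates. Ptgs1 exons also share 148 bases with the predicted gene Gm43621 on the opposite strand.

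**Figure D3:**
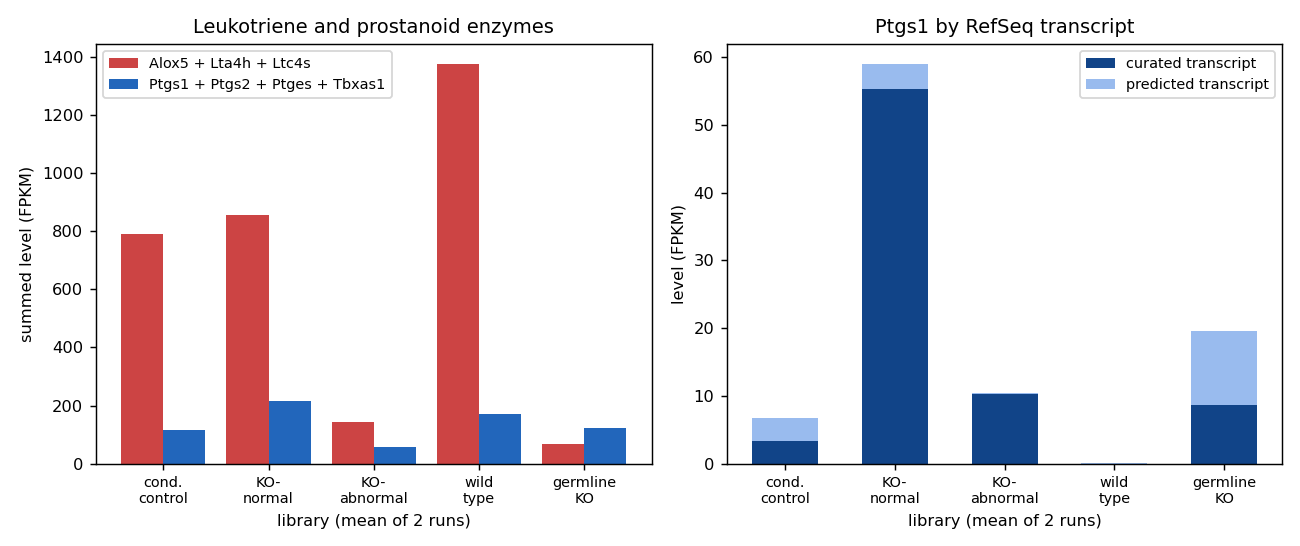
Left, summed FPKM of the leukotriene enzymes (red, without Alox5ap) and of the prostanoid enzymes (blue) in the 5 libraries, means of 2 runs. Right, Ptgs1 in FPKM, stacked by curated and predicted RefSeq transcript; the leukotriene sum exceeds the prostanoid sum in every library but the germline knockout (66.2 against 124 FPKM), and Ptgs1 is highest in the KO-normal library.

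Tbxas1, thromboxane synthase, was the steadiest abundant member. Its library means were 103 FPKM in the conditional control, 158 in the KO-normal, 47.1 in the KO-abnormal, 172 in the wild-type and 104 in the germline knockout library, 3.65-fold from highest to lowest. The germline knockout and conditional control runs overlapped, and in no comparison was the gene called. Its log2 difference was -1.11 in the KO-abnormal library, -0.72 in the germline knockout and 0.74 between the controls. Tbxas1 exons share 144 bases with the predicted gene Gm42962 on the opposite strand.

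Ptges, the inducible prostaglandin E synthase, gave 6.67 and 6.87 FPKM in the conditional control, about 461 reads over both runs, and listed at 0 in the KO-normal and KO-abnormal runs. In the wild type it was at 0.0340 FPKM in 1 run and listed at 0 in the other, and in the germline knockout at 0.174 and 0.181 FPKM. It was thus present at more than 1 FPKM in 1 of the 5 libraries, a control, and under 0.1 FPKM in the other control. Ptgs2, the inducible cyclooxygenase, was listed at 0 in all 10 samples, as were 11403 of 26173 genes. A listed 0 can be a failed estimate in files of this kind, in which Tbp, a gene of the basal transcription machinery, was also at 0 in 2 samples.

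With the branches summed, leukotriene enzymes stood at 790 FPKM and prostanoid enzymes at 116 FPKM in the conditional control, a ratio of 6.80. The ratio was 3.94 in the KO-normal, 2.502 in the KO-abnormal, 8.01 in the wild-type and 0.534 in the germline knockout library. Alox5ap is not in the leukotriene sum. Ltc4s alone gave 515 of the 790 FPKM and Tbxas1 103 of the 116 FPKM in the conditional control. In the germline knockout they gave 47.3 of 66.2 FPKM and 104 of 124 FPKM. The FPKM ratio of Tbxas1 to Alox5 was 0.535 in the conditional control, 0.928 in the wild type, 1.03 in the KO-normal, 2.76 in the KO-abnormal and 21.9 in the germline knockout library.

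Between the controls, 0 of the 8 enzymes were called in either direction, where 0.935% of all genes were higher and 1.17% lower in the wild type. Pla2g2d, Alox15, Ptgs1 and Ptges were under the floor in both controls and could not be called. Their log2 differences were -0.41, 0.00, -2.91 and -2.93. Over the set, 3 enzymes were lower and 1 higher in the KO-abnormal library, 0 lower and 2 higher in the KO-normal library, and 3 lower and 0 higher in the germline knockout, where 2.73% of all genes were higher. In KO-abnormal against KO-normal macrophages, 4 were lower and 0 higher, where 4.02% of all genes were higher.

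Other genes of the pathway came from a list of 63, of which 39 entered the comparisons. In the KO-abnormal library 3 were higher and 8 lower, with a median log2 difference of -0.76, where 4.09% of all genes were higher and 3.76% lower. In the germline knockout 2 were higher and 3 lower (median -0.24), beside 2.73% and 3.36% of all genes. In the KO-normal library 2 were higher and 0 lower (median -0.08), beside 0.935% and 0.838%. Between the controls none was called by the 4-fold rule. The median over all genes was 0.00 in each.

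**Figure D4:**
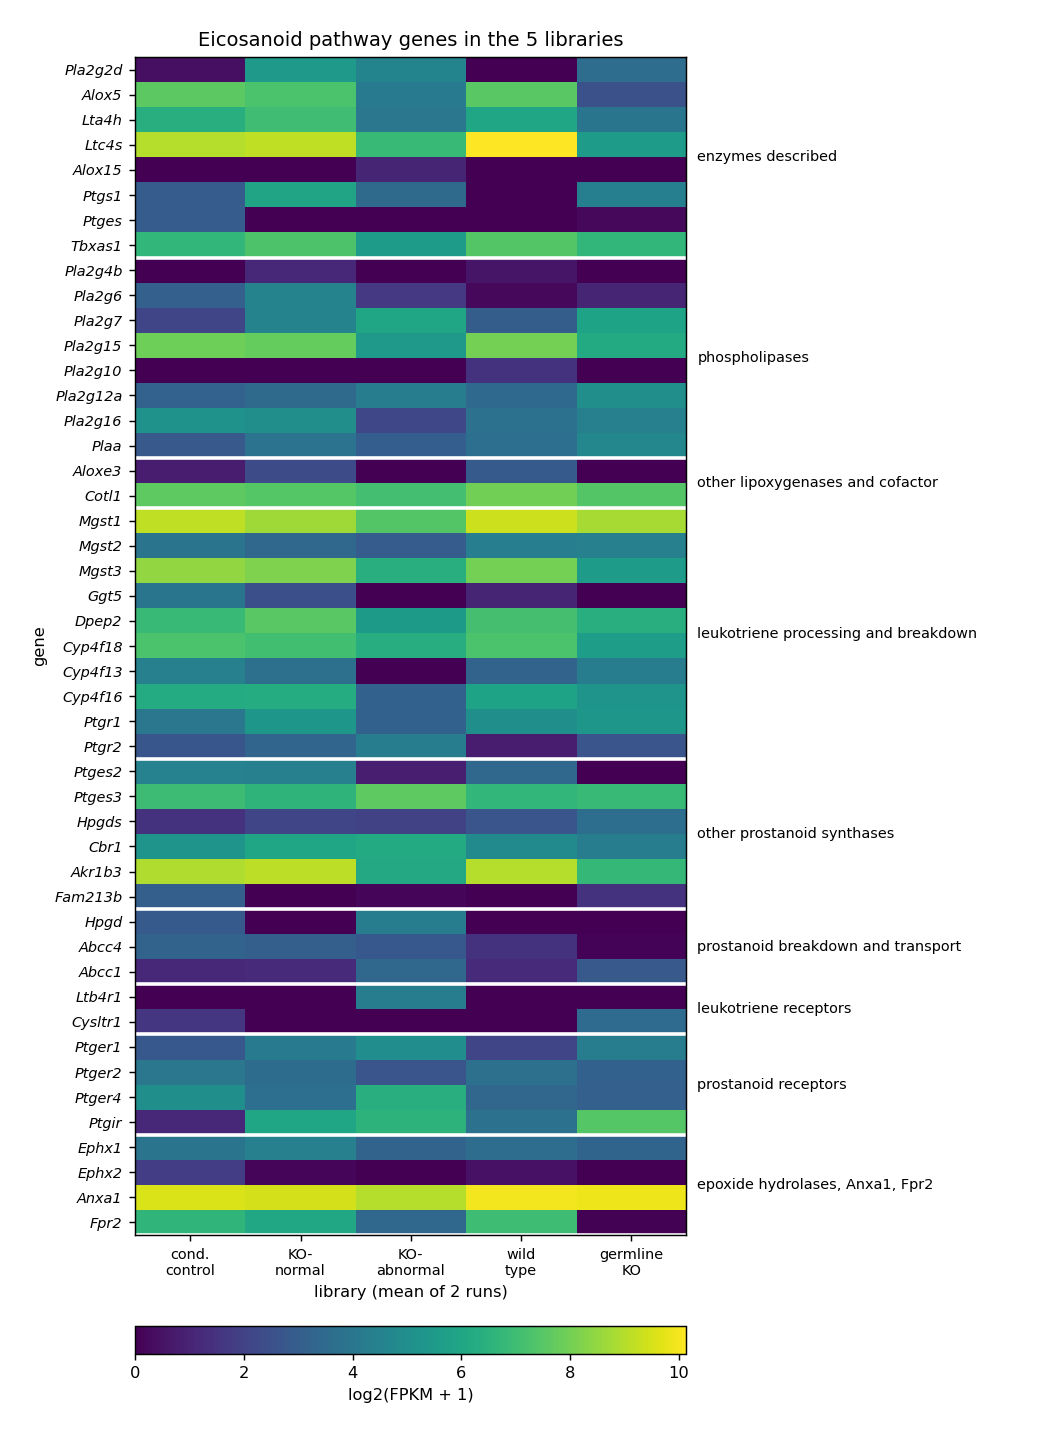
Level, as log2(FPKM + 1), of the 8 enzymes (top block) and of 39 other eicosanoid pathway genes in the 5 libraries (columns, means of 2 runs), grouped by role. Akr1b3, Mgst3 and Fpr2 are darker in the KO-abnormal and germline knockout columns, while Ptgir and Pla2g7 are brighter there than in both controls.

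Among phospholipases, Pla2g7, which breaks down platelet-activating factor, was called higher in all 3 knockout libraries against their controls, at 22.1 FPKM in the KO-normal and 62.3 in the KO-abnormal library (3.31 in the conditional control) and 57.8 in the germline knockout (7.05 in the wild type). The lysosomal enzyme Pla2g15 was lower in the KO-abnormal library, 44.0 against 240 FPKM, and stood at 72.1 against 256 FPKM, uncalled, in the germline knockout. Pla2g16 was lower in the KO-abnormal library, 3.48 against 35.6 FPKM, and stood at 20.2 against 13.2 FPKM, uncalled, in the germline knockout. Pla2g6, a calcium-independent phospholipase, was lower in KO-abnormal than in KO-normal macrophages, 2.25 against 22.0 FPKM. The cofactor of 5-lipoxygenase Cotl1 was at 137 to 251 FPKM and was called nowhere, and Aloxe3 was at 0.696 and 6.37 FPKM in the controls and listed at 0 in the KO-abnormal and germline knockout libraries.

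Of 10 genes of leukotriene processing and breakdown that entered, 3 were lower in the KO-abnormal library, beside 3.76% of all genes, and 1 in the germline knockout, beside 3.36%. Among genes at 20 FPKM or more in the control, those shares were 11.5% and 10.4%. The microsomal glutathione transferase gene Mgst3 was lower in both, at 80.8 against 356 FPKM and 47.4 against 260 FPKM. Its relative Mgst1, at 570 and 173 FPKM in the conditional control and KO-abnormal library, and the dipeptidase gene Dpep2, at 116 and 45.1 FPKM, were not called. The cytochrome genes Cyp4f13 and Cyp4f16 were lower in the KO-abnormal library, Cyp4f16 at 7.96 against 75.5 FPKM and Cyp4f13 far under 1 read against 20.1 FPKM. The control mean of Cyp4f13 was just over the floor, with runs at 19.5 and 20.7 FPKM. In the germline knockout Cyp4f13 stood at 18.5 against 8.30 FPKM, uncalled. Ptgr1, a reductase that inactivates leukotriene B4 and prostaglandins, was lower in KO-abnormal than in KO-normal macrophages, 7.76 against 40.3 FPKM.

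Of 6 other prostanoid synthases, Akr1b3, an aldose reductase with prostaglandin F synthase activity, was lower in the KO-abnormal and germline knockout libraries. It stood at 67.9 against 485 FPKM in the KO-abnormal and 107 against 512 FPKM in the germline knockout, and at 553 FPKM, uncalled, in the KO-normal library. Ptges2 was lower in the KO-abnormal library, 0.809 against 21.5 FPKM, and was listed at 0 in the germline knockout against 9.84 FPKM in the wild type. Ptges3, a cochaperone with prostaglandin E synthase activity, was at 96.7 to 196 FPKM and Cbr1 at 18.7 to 71.7 FPKM, neither called. The prostaglandin dehydrogenase gene Hpgd was at 18.2 FPKM in the KO-abnormal and 6.33 FPKM in the conditional control library and listed at 0 in the others, and the transporter genes Abcc4 and Abcc1 stayed under 10 FPKM.

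The prostacyclin receptor gene Ptgir was called higher in the KO-normal and KO-abnormal libraries, at 61.1 and 92.6 FPKM against 1.24 FPKM, and in the germline knockout, at 174 against 12.9 FPKM. Ptger1 was higher in the KO-abnormal library, 30.1 against 5.92 FPKM, and Ptger4, a prostaglandin E2 receptor gene, was higher in KO-abnormal than in KO-normal macrophages, 80.4 against 11.95 FPKM. The leukotriene B4 receptor gene Ltb4r1 was listed at 0 in 4 libraries and at 17.9 FPKM in the KO-abnormal library, under the floor. Cysltr1, a cysteinyl leukotriene receptor gene, was at 10.6 FPKM in the germline knockout, 2.02 in the conditional control and listed at 0 elsewhere. Fpr2, a receptor for lipoxin A4 and annexin A1, was lower in the KO-abnormal and germline knockout libraries, 9.36 against 97.8 FPKM and 0.0472 against 127 FPKM. In the KO-normal library it was at 65.4 FPKM, uncalled. Anxa1 itself was at 518 to 986 FPKM and Ephx1 at 8.34 to 20.2 FPKM, both uncalled.

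The genes whose pattern over the 5 libraries was most like each enzyme were taken by the root mean square difference of centred log2(FPKM + 1) values among 5316 genes. With 5 libraries, such likeness describes these samples only. For Alox5 they were Acot1 (0.304), Kctd13 (0.374) and Haus4 (0.375), and Ltc4s stood at 0.589. For Lta4h they were Cfb (0.0694), Ccdc80 (0.133) and Lpl (0.248), and for Ltc4s they were Rnase6 (0.225), Cd2 (0.248) and Ubash3b (0.348). Cfb, complement factor B, had levels of 100.3, 143, 18.2, 75.6 and 18.4 FPKM in the conditional control, KO-normal, KO-abnormal, wild-type and germline knockout libraries. Pla2g2d was nearest to Med27 (0.420), St6galnac4 (0.680) and Hpse (0.808), Ptgs1 to Atg10 (0.525), Gpn3 (0.531) and Hfe (0.579), and Tbxas1 to Smc3 (0.117), Aurkaip1 (0.136) and Lrrfip1 (0.146). Among the enzymes, the one nearest to Ptgs1 was Pla2g2d, at 1.17.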

How the data were processed

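Alveolar macrophage RNA of 10 samples was sequenced. Per the labels' protocols, 100 pg of RNA per sample was amplified through 18 PCR cycles. The deposited table holds FPKM values that the authors made for 45913 RefSeq transcripts. The submitters' processing notes name eXpress 1.5.1 and Bowtie 1.1.2 without their roles. For genome build, filters and pooling the sources used here give nothing. Read counts were not used.

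All 10 columns matched a sample title. Transcripts sharing an Entrez gene were added up, and each pair of runs was averaged. Genes at 1 FPKM or more in 2 columns entered (11336), with a pseudocount of 1 FPKM. A call needed a difference of 2 log2 units for means and for all pairings of runs, and 20 FPKM. The rule was run on simulated data with sampling noise only, which cannot show how it fares with variation between libraries. Depth was estimated from the commonest product of low values and GENCODE M21 transcript lengths, and is approximate. Promoter windows came from RefSeq.

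The enzymes, lists, rule and motifs were chosen with earlier results of these data known. All enzymes were named. Of other pathway genes, those called in a knockout comparison and the 3 with the highest library mean in each sub-list were named; genes such as Oxgr1 and Alox8, at near 0, are left out. Predicted genes were left out of the pattern search. Python 3.11.15, numpy 2.4.6 and pandas 2.3.3 were used.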

Additional observations from a re-analysis of the deposited data

Results flagged for a closer look

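In KO-normal macrophages and in the germline knockout, Lta4h and Ltc4s moved in opposite directions against their own controls in every pairing of runs. The log2 difference of Lta4h was 0.64 in the KO-normal library and -2.09 in the germline knockout, and that of Ltc4s was 0.15 and -4.55. With the wild type as reference, the KO-normal difference of Ltc4s was -0.98, so the opposite direction was lost, and that of Lta4h was 1.02. These differences were not tested, since each group is 1 library.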

How the results depend on the processing

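The settings tried were a pseudocount of 0.1 FPKM, no filter on low values, a floor of 5 FPKM, median-of-ratios scaling, the most abundant transcript only, each run left out, and the other control as reference; using the other control for the germline knockout, and for counts of all genes, was chosen after seeing the data. Leaving the change of reference aside, the 13 called differences of the enzymes kept their direction in 117 of 117 alternative values and their call in 115. Most of these values could not have lost a call, so the count does not measure robustness. The rule already asked for every pairing of runs. Dropping the filter or lowering the floor or pseudocount can only keep or add calls. Enzymes with a single transcript were the same under the transcript setting. Rescaling was able to remove a call. The exceptions were Ltc4s in the KO-abnormal library (-2.13) and Lta4h in the germline knockout (-1.95), both uncalled with rescaled columns. With the other control as reference, Lta4h in the KO-abnormal library (-1.98) was the 1 called difference that lost its call. No called difference reversed. Of those not called, 4 changed sign with the other control as reference, Ltc4s (-0.98) and Tbxas1 (-0.12) in the KO-normal library and Ptges (-2.72) and Tbxas1 (0.02) in the germline knockout. With a floor of 5 FPKM, 1097 genes were higher and 1083 lower in the KO-abnormal library, 490 and 574 in the KO-normal, 1162 and 1003 in KO-abnormal against KO-normal, 914 and 1012 in the germline knockout and 484 and 714 between the controls. That floor also added Ptges as 1 lower enzyme in the KO-normal library and as the 4th lower in the KO-abnormal, Pla2g2d and Ptgs1 as 2 higher in the germline knockout, and Ptges and Ptgs1 as 2 lower in the wild type against the conditional control. Rescaling added 1 higher enzyme in the germline knockout, Ptgs1, and leaving out single runs gave 0 to 1 there. Against the wild type, the KO-normal library had 164 genes lower. No paired analysis was possible because the samples carry no replicate numbers shared between groups and each group is 1 library. A gene at 5 to 10 FPKM in 1 control can be under 0.1 FPKM in the other. Whether this came from the input of 100 pg of RNA or from the different mouse lines was not tested.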
